A study of Mus musculus with 79 samples.

Results

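The proneural genes examined here are Neurod1, Neurod2, Neurod4, Neurod6, Neurog1, Neurog2, Neurog3 and Atoh1, chosen by name. All 8 were among the 25965 genes measured by RNA-seq in the adult hypothalamus, and their promoters and gene bodies were read from the tiled ChIP-seq table of the same tissue. RNA-seq libraries came from 5 +/+ and 4 Δ/D329A mice, and H3K4me3, H3K27me3, H3K36me3 and input libraries from 3 mice of each genotype, all aged 14 weeks. The study's legends give male mice for the ChIP-seq but differ on the RNA-seq, female in one and male in another. RNA and marks may therefore come from mice of different sex. The Δ/D329A mice carry a maternal Dnmt3a allele without exon 18, deleted in the oocyte by Zp3-Cre, and a paternal allele with the D329A point mutation in exon 8, which lies in the PWWP domain of this DNA methyltransferase. D329A is thus their only functional Dnmt3a allele, in every cell, while +/+ mice have 2 wild-type alleles, and mice with only 1 of the changes were not measured in these assays. Each RNA-seq library is a separate animal, and the 4 ChIP-seq libraries of a replicate (3 marks and input) were made from the same sample, so that the ChIP-seq data come from 6 samples. The hypothalamus was taken as a whole, so that fewer cells with a transcript or mark and less of it per cell cannot be told apart.

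Proneural proteins are basic helix-loop-helix (bHLH) transcription factors that pair with E proteins, bind E-boxes and drive progenitors out of the cell cycle into neuronal fates. Neurogenins and Atoh1 act early in progenitors, and the NeuroD factors follow during differentiation. Notch signalling through Hes and Hey repressors holds these genes down, and Id proteins sequester their partners. In the adult brain most proneural genes are silent, with Neurod1 kept in granule neurons and Neurod2 and Neurod6 in excitatory neurons of the forebrain. Polycomb complexes mark such silent developmental genes with H3K27me3, H3K4me3 marks active or poised promoters, and H3K36me3 marks transcribed gene bodies.

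In GRCm38 the genes lie at chr2:79452521-79456751 (Neurod1), chr11:98325415-98329648 (Neurod2), chr10:130268153-130280240 (Neurod4), chr6:55677818-55681263 (Neurod6) and chr13:56250505-56252163 (Neurog1) on the minus strand, and at chr3:127633136-127635631 (Neurog2), chr10:62133090-62134763 (Neurog3) and chr6:64729146-64731233 (Atoh1) on the plus strand.

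The 300-base promoter windows (250 bases before to 50 after the RefSeq start, GRCm38.p6) differed in their content of CpG sites, the substrate of DNMT3A. Neurog1 had 32 CpG sites, Neurod1 26, Atoh1 20, Neurog3 19, Neurod2 16, Neurog2 10, Neurod4 4 in the window nearest its start in the RNA-seq table, and Neurod6 3, against a median of 7 over 32851 promoters. The 4 windows below are shown because they span this range and carry the chromatin results given further on, with CpG sites in capitals. They lie at chr13:56252131-56252430 for Neurog1, chr11:98329596-98329895 for Neurod2, chr10:130280205-130280504 for Neurod4 and chr6:55681214-55681513 for Neurod6, all on the minus strand.
Neurog1: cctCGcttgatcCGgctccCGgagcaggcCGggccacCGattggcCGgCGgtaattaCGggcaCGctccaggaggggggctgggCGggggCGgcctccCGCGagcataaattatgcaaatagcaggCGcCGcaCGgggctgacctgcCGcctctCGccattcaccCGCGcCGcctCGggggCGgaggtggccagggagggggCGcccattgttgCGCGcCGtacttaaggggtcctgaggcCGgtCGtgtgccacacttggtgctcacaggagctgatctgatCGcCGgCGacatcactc
Neurod2: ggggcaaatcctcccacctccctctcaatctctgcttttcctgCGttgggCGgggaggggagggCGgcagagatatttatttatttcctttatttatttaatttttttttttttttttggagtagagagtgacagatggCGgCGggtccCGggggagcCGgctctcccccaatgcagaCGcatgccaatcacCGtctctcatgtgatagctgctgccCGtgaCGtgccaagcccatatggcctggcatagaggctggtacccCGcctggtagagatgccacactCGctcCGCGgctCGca
Neurod4: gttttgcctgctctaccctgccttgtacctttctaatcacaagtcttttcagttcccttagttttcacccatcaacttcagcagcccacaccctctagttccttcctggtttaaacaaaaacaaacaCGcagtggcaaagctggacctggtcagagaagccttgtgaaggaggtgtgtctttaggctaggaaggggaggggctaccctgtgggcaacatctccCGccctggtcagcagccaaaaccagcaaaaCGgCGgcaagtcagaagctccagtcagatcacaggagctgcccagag
Neurod6: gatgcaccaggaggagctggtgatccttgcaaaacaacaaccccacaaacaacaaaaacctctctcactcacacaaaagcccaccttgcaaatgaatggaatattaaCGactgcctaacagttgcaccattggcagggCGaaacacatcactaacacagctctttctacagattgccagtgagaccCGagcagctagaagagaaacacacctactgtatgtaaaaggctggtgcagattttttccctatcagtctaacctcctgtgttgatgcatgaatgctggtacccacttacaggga
The E-box CANNTG, a palindrome that is the same on both strands, occurred 3 times in the Neurod2 window, 2 times in that of Neurod6, once each in Neurod1, Neurog1 and Neurog3, and not in those of Neurog2, Atoh1 or Neurod4. At least 1 E-box was present in 72.3% of all promoter windows, so its presence does not set these genes apart.

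Proneural transcripts were scarce in the adult hypothalamus, and no member was called changed in Δ/D329A. Reads were found in all 9 libraries for 3 members, Neurod1, Neurod6 and Neurog2. In +/+ the mean level on the log2 RPKM scale, which corrects for length, was -0.88 ± 0.33 (SD, n = 5) for Neurod1, -1.56 ± 0.41 for Neurod6, -2.004 ± 0.74 for Neurog2, -2.63 ± 0.85 for Neurod2 and -5.04 ± 0.74 for Neurod4. Neurod6 and Neurog2, and Neurog2 and Neurod2, were neighbours in this order that lay closer than the larger of their SDs, while Neurod1 and Neurod4 stood apart from theirs. Neurod1, the highest member, lay at percentile 51.0 of all genes.

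Atoh1, which specifies cerebellar granule, hindbrain and hair cell lineages, had no read in any of the 9 libraries, which allows up to 0.018 RPKM in +/+ and 0.029 RPKM in Δ/D329A over each group's pooled reads. Neurog1, a determinant of sensory neurons, had 2 reads, both in Δ/D329A replicate 3. Neurog3, the endocrine determinant of the pancreas, had 1 read, in Δ/D329A replicate 4. A gene without a read is deposited at a floor of 0.9 reads, so the deposited values of Atoh1 differed between groups by library depth alone, and those of Neurog1 and Neurog3 by depth and these few reads. No test is given for these 3 genes.

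Neurog2, which specifies glutamatergic cortical neurons, had 14, 18, 6, 5 and 7 reads in +/+ replicates 1 to 5 and 13, 8, 13 and 12 in Δ/D329A replicates 1 to 4. The Δ/D329A libraries lay within the +/+ range, which was wide. The log2 difference (Δ/D329A minus +/+) was 0.73 with a standard error of 0.35 and a 95% interval from -0.04 to 1.496 (limma, adjusted p = 0.355).

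Neurod1, a driver of terminal neuronal and endocrine differentiation, had 25, 17, 27, 26 and 24 reads in +/+ and 10, 10, 10 and 13 in Δ/D329A. The read counts did not overlap, but the Δ/D329A libraries were shallower, and on the scaled values (0.398 to 0.739 RPKM in +/+, 0.250 to 0.428 RPKM in Δ/D329A) the groups overlapped. The log2 difference was -0.77 with a standard error of 0.24 and a 95% interval from -1.29 to -0.24, and it missed the threshold over all genes (limma, adjusted p = 0.355; exact permutation test of this gene alone, two-sided p = 0.0238, where 0.00794 is the smallest possible). The same gene gave -0.80 by edgeR (adjusted p = 0.221) and -0.81 by DESeq2 (adjusted p = 0.313). Neurod1 lies inside the annotated span of Cerkl on the same strand, a gene with 43 reads in +/+ and 23 in Δ/D329A, and the start of the antisense gene Gm26755 lies within it, so that its reads cannot be assigned with certainty. The study describes its libraries as strand-specific, which would not separate Neurod1 from Cerkl, and the use of strand in counting is not given in the sources used here.

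Neurod2, which acts in postmitotic excitatory neurons, had 10, 14, 12, 4 and 5 reads in +/+ and 3, 0, 3 and 0 in Δ/D329A. Every Δ/D329A library was below every +/+ library, at 0 to 0.072 RPKM against 0.082 to 0.285 RPKM. It did not reach the limit for the fit (0.1 RPKM in at least 4 libraries), and the deposited values gave a two-sided p of 0.0159 in an exact permutation test. From the pooled reads the ratio of Δ/D329A to +/+ was 0.215, with a counting interval of 95% from 0.0748 to 0.504. The count fits without such a limit gave -2.19 by edgeR (adjusted p = 0.129) and -2.30 by DESeq2 (adjusted p = 0.124), neither of them a call. Groups without overlap in this direction were seen in 1.23% of the 17839 genes fitted, which do not include Neurod2. The share among genes with as few reads was not computed.

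Neurod6, of the same forebrain neurons, had 15, 16, 9, 12 and 8 reads in +/+ and 13, 3, 11 and 5 in Δ/D329A. Of the 4 Δ/D329A libraries, 2 lay within the +/+ range in RPKM and 2 below it. The log2 difference was -0.40 with a 95% interval from -1.18 to 0.39 (limma, adjusted p = 0.737). Neurod4, a factor of retinal and hindbrain neurogenesis, had 1, 2, 0, 3 and 2 reads in +/+ and 1, 0, 1 and 4 in Δ/D329A, a ratio of 1.21 with a counting interval of 95% from 0.345 to 3.97.

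**Figure D1:**
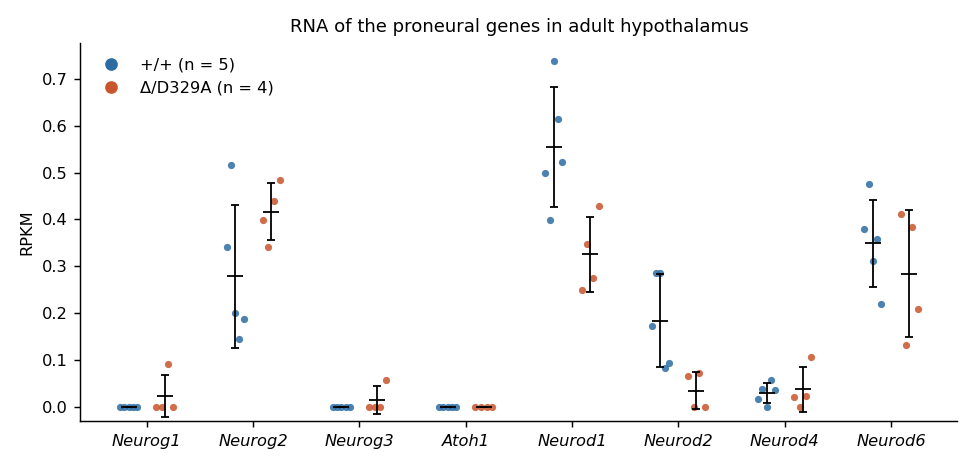
RPKM of each proneural gene per library (points; y axis, RPKM; libraries without a read at 0), with the mean and SD in black, for 5 +/+ and 4 Δ/D329A mice. Neurod1 and Neurod2 are lower in Δ/D329A on average, and Neurog1, Neurog3 and Atoh1 are at or near 0.

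Of the 3 members fitted, 0 were called at an adjusted p under 0.01 by limma, against 0.107% of all genes fitted, and 1, Neurod1, had an unadjusted p under 0.05, against 7.62% of all genes. edgeR (0.554% of genes called, or 0.706% without its limit on low counts) and DESeq2 (1.22%) also called 0 members. The median log2 difference of the 3 was -0.40, against 0.06 over all genes fitted. The genes whose log2 RPKM was most like that of Neurod1 over the 9 libraries were Gm20475 (Pearson r = 0.93), Gm13625 (r = 0.91) and H2-DMb1 (r = 0.88). No other member had at least 10 reads in every library.

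None of the genes fitted in the lists of the same pathway was called by limma either. Of the 17 other neural bHLH genes in the table, 9 were fitted and 0 called, with log2 differences of 0.98 for Atoh8 (adjusted p = 0.355) and -0.89 for Bhlha9 (adjusted p = 0.381). All 3 E proteins, the dimerization partners, were fitted and 0 called (Tcf4, -0.21; Tcf12, 0.16). All 4 Id inhibitors were fitted and 0 called (Id4, 0.48; Id1, 0.46). All 10 Notch ligands and receptors were fitted and 0 called (Jag1, -0.49; Dll4, -0.38), as were 6 of 9 Hes and Hey repressors (Heyl, -0.49; Hes1, -0.36).

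Among genes that proneural factors are known to switch on, limma called 0 as well. It called 19 genes in all, against 249 by DESeq2, and the count fits are not given for these lists. This held for 19 neurogenic targets fitted of 20, among which Tbr1, a T-box factor of excitatory neurons, stood at 1.97 (limma, adjusted p = 0.119) and Dcx, a microtubule protein of young neurons, at -0.83 (adjusted p = 0.0758). Of 7 Atoh1 targets 5 were fitted (Lhx9, 1.18, adjusted p = 0.277; Lhx2, 0.35). The study, which tested with DESeq, describes Lhx9 as upregulated in Δ/D329A. Of 9 endocrine targets of Neurog3 and Neurod1 other than Neurod1 itself 6 were fitted (Tbx19, -1.66, and Pomc, -1.06, both with an adjusted p of 0.355).

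H3K27me3 covered the promoters of nearly all members, and no difference between genotypes passed the test. In +/+ mice 7 of 8 promoters (from 1500 bases before to 500 after the start) carried H3K27me3 at a log2 ratio to input of at least 1 in all 3 animals, against 8.43% of 25952 promoters. In Δ/D329A mice all 8 passed this limit, against 9.29%. Neurod4 was the exception in +/+, at 0.82, 0.84 and 1.26 (log2 ratio to input), against 1.30, 1.54 and 1.57 in Δ/D329A. Its signal was 1.57, 1.86 and 2.50 RPM (reads in a 2 kb tile, scaled to the library's mapped reads) in +/+ and 2.39, 2.12 and 2.59 RPM in Δ/D329A, which overlap.

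Atoh1 had the highest level, at 7.33, 6.42 and 6.89 RPM in +/+ and 5.82, 6.11 and 7.13 RPM in Δ/D329A, at the 99.6th percentile of promoters. Neurog3 stood at 6.01, 5.40 and 5.53 RPM against 5.01, 5.41 and 6.65 RPM. Neurog2 stood at 5.32, 4.80 and 5.97 RPM against 4.84, 3.63 and 5.10 RPM. In each of these the groups overlapped in RPM. As a log2 ratio to input they did not at Atoh1 (3.32, 2.95 and 3.11 against 2.37, 2.74 and 2.82; difference, -0.48; limma, adjusted p = 0.594) and Neurog2 (3.07, 2.67 and 2.73 against 2.61, 2.53 and 1.95; difference, -0.46; adjusted p = 0.648). Neurod6 (1.76, 1.45 and 1.67 against 1.89, 2.06 and 1.85) and Neurod4 went the other way on this scale, higher in Δ/D329A without overlap. The share of all promoters without overlap on this scale was not computed. Mean input also differed at these promoters, in the direction opposite to the ratio. From +/+ to Δ/D329A it went from 0.70 to 0.93 RPM at Atoh1 and from 0.68 to 0.83 RPM at Neurog2. At Neurod6 it went from 0.96 to 0.81 RPM and at Neurod4 from 0.94 to 0.79 RPM. The part of input in these ratios was not tested. The lowest among the marked members was Neurod6, at 3.59, 3.03 and 2.95 RPM in +/+ and 3.53, 3.02 and 3.50 RPM in Δ/D329A. Over the 8 promoters the log2 differences ran from -0.27 (Neurod2; 95% interval, -0.64 to 0.10) to 0.27 (Neurod4; -0.18 to 0.71), with 4 above 0 and a median of -0.04, against -0.02 over all promoters. limma called 0 members, and 0 had an unadjusted p under 0.05, against 8.9% of promoters, and edgeR called 0 members and 1.06% of promoters. Over gene bodies 0 members were called by limma, against 0.00846% of bodies, and 0 by edgeR, against 0.453%, with 1, Neurog2, at an unadjusted p under 0.05, against 13% of bodies. There Neurog2 had 5.44, 3.87 and 4.96 RPM in +/+ and 3.87, 3.27 and 3.81 RPM in Δ/D329A, with every Δ/D329A value below every +/+ value, and bodies without overlap in that direction were 14.7% of all.

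The H3K27me3 domains were broad. A domain was taken as the run of 2 kb tiles around the start with a log2 ratio to input of at least 1, within 15 kb on each side. In +/+ it measured 29 to 31 kb at Neurog2, 26 to 29 kb at Neurod2, 18 to 30 kb at Neurog1, 21 to 30 kb at Atoh1, 18 to 22 kb at Neurog3, 15 to 19 kb at Neurod1 and 11 to 15 kb at Neurod6. Neurod4 had 2 to 3 kb. Domains reached the edge of the window in every animal at Neurog2, Neurod2 and Atoh1, and in 1 animal of each genotype at Neurog1 and Neurog3, so those widths are lower bounds. The Δ/D329A ranges overlapped the +/+ ranges at all 8 genes, for example 30 to 31 kb at Neurog2 and 14 to 16 kb at Neurod6. At a log2 ratio of 1.5 the median over the 8 genes fell from 22.2 to 16.7 kb, and the genotypes separated at Neurod4, with 0 kb in all 3 +/+ animals and 2 kb in all 3 Δ/D329A animals.

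H3K4me3 stood beside H3K27me3 at some of these promoters and differed most at Neurod6 and Neurod2. In +/+ mice Atoh1, Neurod1, Neurog1 and Neurog2 carried both marks in all 3 animals, 4 of 8 against 4.9% of all promoters. In Δ/D329A mice Neurod1 and Neurog2 met the H3K4me3 limit in all 3 animals, 2 of 8 against 53.9% of promoters. Neurog1 (log2 ratios of 0.81, 2.02 and 1.15) and Atoh1 (0.75, 1.29 and 1.15) missed it in Δ/D329A replicate 1 only. That library had a higher H3K4me3 background, as given below. The share of all promoters with both marks was not computed for Δ/D329A. At H3K4me3 alone, 4 of 8 members were marked in +/+, against 55.1% of promoters.

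Neurod6 had 7.68, 5.69 and 1.81 RPM of H3K4me3 at its promoter in +/+ and 0.721, 0.158 and 0.323 RPM in Δ/D329A. All 3 Δ/D329A animals lay below the lowest +/+ animal, and below their input (0.646 to 0.899 RPM), while the +/+ animals themselves spread widely. The log2 difference was -3.30 with a standard error of 0.71 and a 95% interval from -5.08 to -1.52, a value 9.86-fold lower on the scale of RPM plus 0.1. The fit over all promoters did not call it (limma, adjusted p = 1; unadjusted p = 0.0044), and an exact permutation test of 3 animals against 3 cannot go below the p of 0.1 that it returned. Over the gene body the values were 7.97, 5.68 and 1.51 RPM against 0.773, 0.421 and 0.473 RPM, a log2 difference of -2.72 (limma, adjusted p = 0.820). The H3K4me3 domain reached 3 to 8 kb in the +/+ animals and 0 kb in every Δ/D329A animal (at a log2 ratio of 1.5, 6, 7 and 0 kb in +/+ and 0 kb in Δ/D329A, where +/+ replicate 3 no longer stood apart), at a promoter with 3 CpG sites in its window.

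Neurod2 was also lower in every Δ/D329A animal. Its promoter had 2.85, 1.96 and 0.460 RPM in +/+ and 0.220, 0.434 and 0.226 RPM in Δ/D329A, where the highest Δ/D329A value was just below the lowest +/+ value (log2 difference, -1.98; 95% interval, -3.78 to -0.17; limma, adjusted p = 1). Over the body the values were 8.73, 4.77 and 1.74 RPM against 1.02, 1.01 and 0.678 RPM (log2 difference, -2.12; adjusted p = 1). The highest tile within 3 kb of the start, centred 1.6 kb downstream, held 13.0, 6.98 and 2.82 RPM in +/+ and 1.63, 1.58 and 1.10 RPM in Δ/D329A. The highest tile from 3 to 15 kb, centred 9.4 kb upstream, held 11.6, 11.8 and 10.4 RPM in +/+ and 7.96, 14.9 and 10.8 RPM in Δ/D329A, so the same libraries overlapped there.

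The call on these 2 genes depended on how much spread the fit lent from other regions. With promoters under a mean of 0.2 RPM left out, limma estimated an infinite prior weight for the shared spread, so that the animals' own spread at a gene counted for nothing, and both were called with the same log2 differences (Neurod6, adjusted p = 2.43e-18; Neurod2, adjusted p = 0.000445), as were 1.35% of promoters. edgeR on the reads of 1 tile called both over gene bodies (Neurod6, adjusted p = 3.90e-08; Neurod2, adjusted p = 3.02e-05), as it did 0.46% of bodies, but neither at promoters (adjusted p = 0.0710 and 0.125), where it called 0.456%.

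Forebrain markers varied between the same H3K4me3 libraries. Emx1, of the dorsal telencephalon, had 3.42, 1.16 and 1.08 RPM of promoter H3K4me3 in +/+ and 0.909, 1.30 and 1.13 RPM in Δ/D329A. Fezf2, of deep-layer cortical neurons, had 11.04, 2.46 and 3.78 RPM against 1.19, 1.77 and 1.77 RPM. Summed over the 13 cortical projection neuron markers in the table, promoter H3K4me3 was 140, 103 and 108 RPM in +/+ and 62.4, 134 and 116 RPM in Δ/D329A, and 2 of the 13, Fezf2 and Bcl11b, were lower without overlap. In RNA the same markers summed to 27.1 to 47.2 RPKM in +/+ and 37.1 to 46.4 RPKM in Δ/D329A, and Tbr1 stood at a log2 difference of 1.97 (limma, adjusted p = 0.119). The part of tissue composition in the Neurod2 and Neurod6 values was not tested. The H3K4me3 library of Δ/D329A replicate 1 also had a higher background than the others (median tile, 0.314 RPM against 0.0789 to 0.1995 RPM), and without it the Neurod6 and Neurod2 promoters stood at -3.74 and -1.85. Signal on the mitochondrial genome was above the median in the H3K27me3 libraries of +/+ replicate 3 and Δ/D329A replicates 2 and 3, which also had the highest such signal for H3K4me3 (29.5, 44.6 and 31.2 RPM against 14.8 to 19.2 RPM), but not for H3K36me3 or input. Within this set Neurod6 had 1.81 RPM in +/+ against 0.158 and 0.323 RPM in Δ/D329A. Neurod2 had 0.460 RPM against 0.434 and 0.226 RPM. The +/+ animal of the set was the lowest of its genotype at both genes. Among the other animals both genes were also lower in Δ/D329A. With the set as a block Neurod6 and Neurod2 stood at -2.78 and -1.69. With so few animals the set and genotype cannot be fully told apart, and the cause was not tested.

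At the other members H3K4me3 differences were smaller. Neurod1 had 5.60, 5.45 and 6.14 RPM at its promoter in +/+ and 2.23, 6.90 and 2.55 RPM in Δ/D329A, where replicate 2 lay above every +/+ animal and the other 2 far below. Over its body the values were 13.6, 11.8 and 10.8 RPM against 2.15, 11.8 and 3.42 RPM (log2 difference, -1.41; 95% interval, -2.93 to 0.11; limma, adjusted p = 1). Neurog2 had 6.86, 9.61 and 6.77 RPM in +/+ and 5.24, 11.2 and 8.23 RPM in Δ/D329A, a log2 difference of 0.04 with a 95% interval from -0.73 to 0.81. Neurog1 had 2.53, 2.13 and 2.23 RPM against 1.85, 2.92 and 2.42 RPM, also a difference of 0.04 (-0.56 to 0.64). Neither of these neurogenins differed beyond its spread, and both intervals include a change of the size seen at Atoh1.

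Atoh1 had 2.75, 2.93 and 2.99 RPM in +/+ and 1.82, 2.17 and 2.16 RPM in Δ/D329A. Its animals agreed closely within each genotype and the groups did not overlap, yet the log2 difference of -0.48 (95% interval, -0.94 to -0.02) was not called (limma, adjusted p = 1). Its input moved the other way, at 0.646 to 0.741 RPM in +/+ and 0.828 to 1.04 RPM in Δ/D329A, 1 of 8 members higher without overlap against 6.26% of promoters. Neurog3 and Neurod4 had under 1 RPM in every library, near or below input. At promoters 4 of 8 members, Neurod2, Neurod4, Neurod6 and Atoh1, were lower in Δ/D329A without overlap, against 4.22% of promoters, and 3 (Neurod6, Atoh1 and Neurod2) had an unadjusted p under 0.05, against 3.47%. The member median was -0.67, against -0.07 over all promoters. Lower H3K4me3 was also seen in some of the other lists. Among the 17 other neural bHLH genes 5 were lower without overlap (Bhlhe22, Bhlha9, Ptf1a, Olig2 and Tal2), with a median of -0.48. Among the 7 medial habenula markers 3 were (Chrna3, Chrnb4 and Tac1), with a median of -0.67, while Pou4f1 was higher without overlap (log2 difference, 2.05). Every other list had at most 2 such lower genes, with 0 among the 20 neurogenic targets, 9 thalamic and 6 cerebellar granule markers. limma called 0 members and 0 of all promoters. Over bodies Neurod2, Neurod6 and Neurog3 were lower without overlap, 3 of 8 against 4.5% of bodies, and the same 3 had an unadjusted p under 0.05, against 3.53%.

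**Figure D2:**
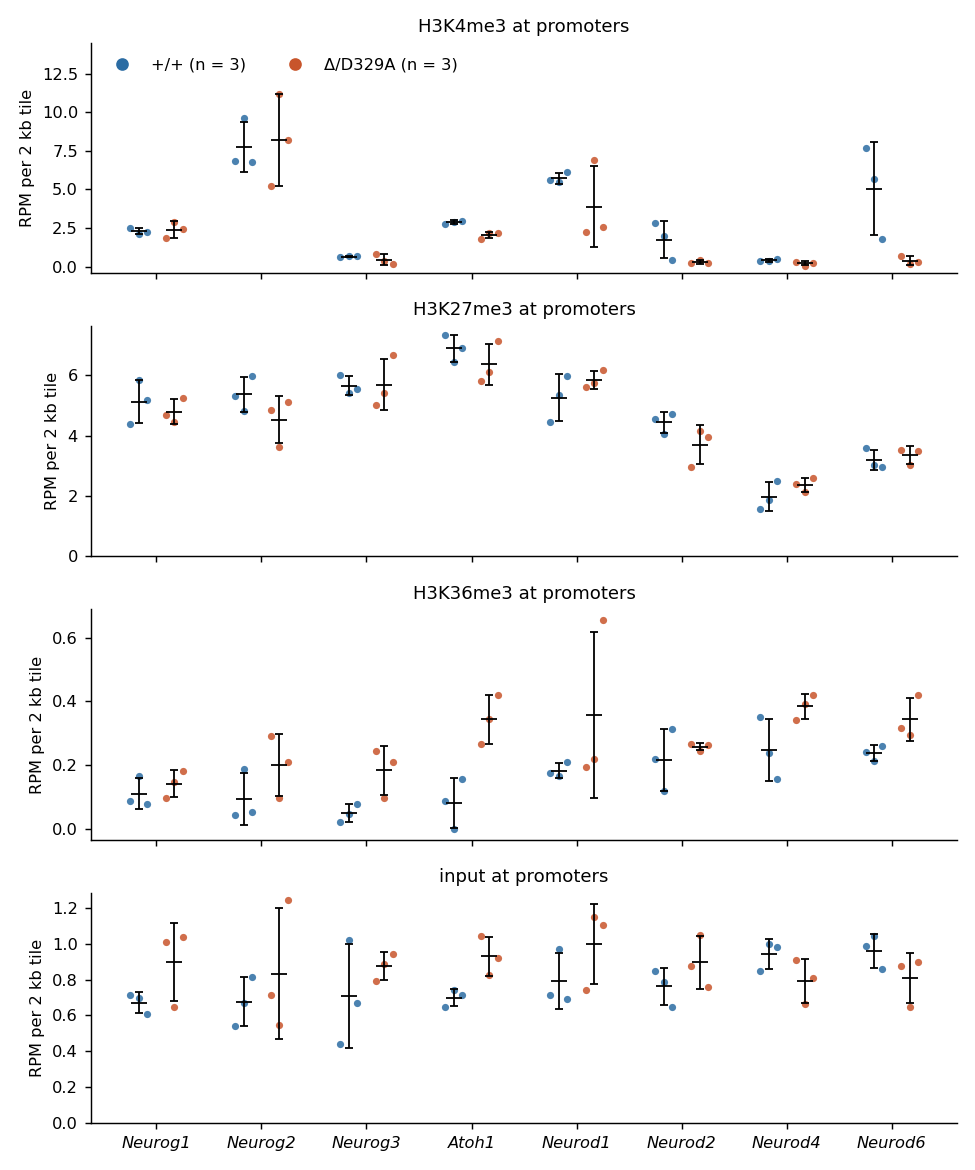
H3K4me3, H3K27me3, H3K36me3 and input at the promoter of each member per animal (points; y axis, RPM per 2 kb tile, with a scale for each panel), with the mean and SD in black, for 3 +/+ and 3 Δ/D329A mice. Neurod6 and Neurod2 are lower for H3K4me3 in all 3 Δ/D329A animals while their H3K27me3 overlaps between genotypes on this scale. As a log2 ratio to input, H3K27me3 at Neurod6 was higher in Δ/D329A without overlap, where mean input was lower (0.81 against 0.96 RPM). The share of all promoters without overlap on that scale was not computed.

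**Figure D3:**
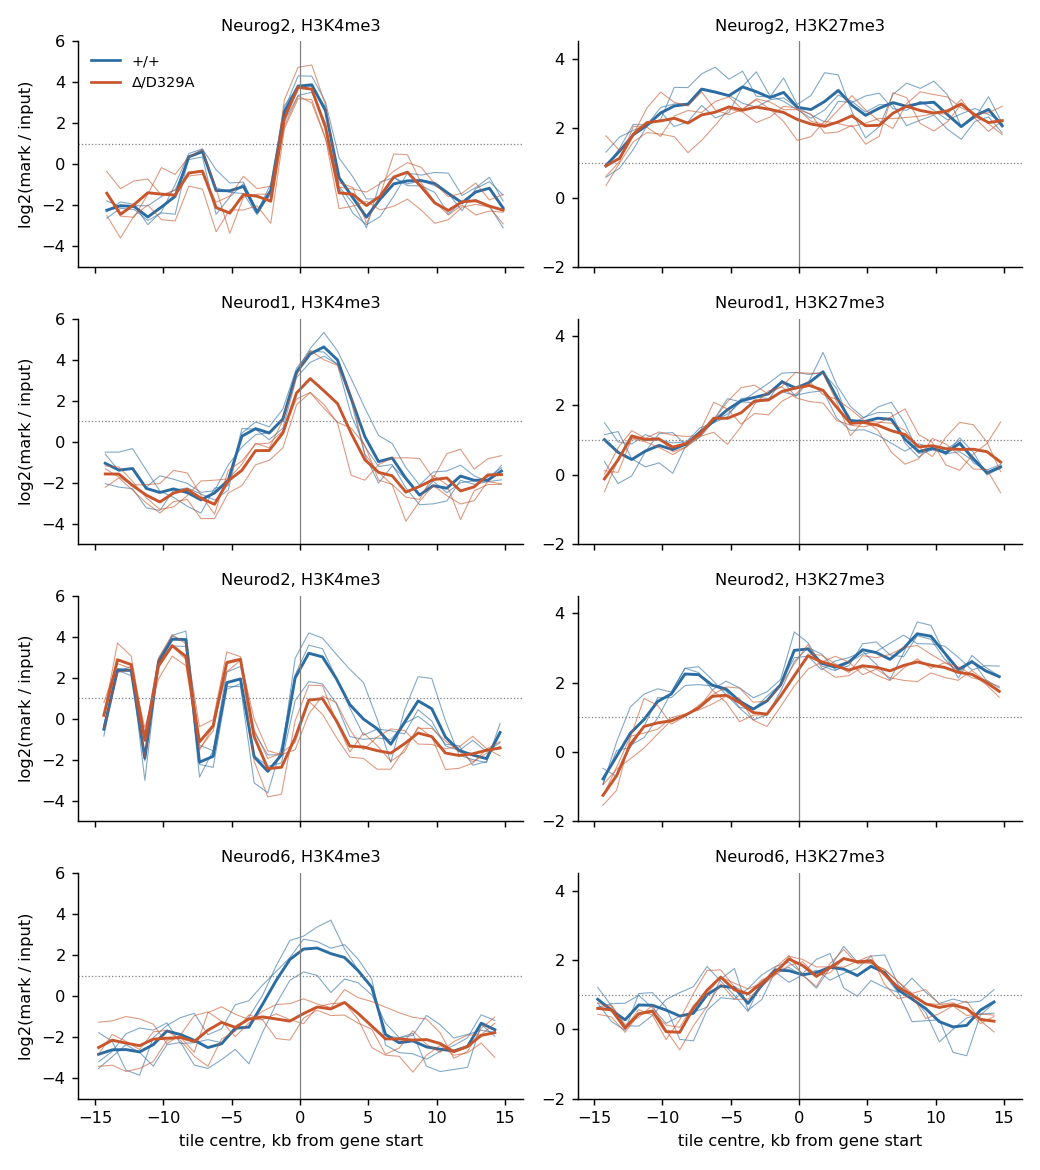
Log2 ratio of H3K4me3 (left) and H3K27me3 (right) to input over 2 kb tiles against distance from the start in kb, in the direction of transcription, for Neurog2, Neurod1, Neurod2 and Neurod6. Thick lines are means over 3 animals, thin lines single animals, and the dotted line marks a log2 ratio of 1; the Neurod2 tiles near -9.4 kb overlap between genotypes, and the +/+ mean of H3K4me3 lies above the Δ/D329A mean over the starts of Neurod1, Neurod2 and Neurod6.

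H3K36me3 was below input at the promoter of every member in every animal. In +/+ 0 of 8 promoters were marked, against 0.998% of promoters, as in Δ/D329A (0.798% of promoters), and the levels were 0.0493 to 0.248 RPM as means of 3 animals. All 8 promoter differences were above 0, from 0.21 (Neurog1) to 1.38 (Atoh1), with a median of 0.53 against 0.106 over all promoters, although Neurod2 turned negative over a wider window (-0.04), Neurod4 by edgeR (-0.18) and Neurog1 as a ratio to input (-0.13). Input at the same promoters was also higher in 6 of 8 members, with a median of 0.25 against 0.03 over all promoters. limma called 0 members, against 0.0231% of promoters, 2 (Atoh1 and Neurog3) had an unadjusted p under 0.05, against 6.58%, and edgeR, which could fit 2 of the 8 members, called 0. Atoh1 had 0.0875, 0 and 0.157 RPM in +/+ and 0.268, 0.344 and 0.420 RPM in Δ/D329A. Neurog3 had 0.0219, 0.0474 and 0.0785 RPM against 0.243, 0.0983 and 0.210 RPM. Atoh1, Neurog3 and Neurod6 were higher in Δ/D329A without overlap, 3 of 8 against 8.99% of promoters. Such values come from very few reads, 0 to 7 in the central tile of either promoter.

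Over gene bodies H3K36me3 followed the same pattern at the silent members. Neurog3 had 0 reads in all 3 +/+ animals and 2, 4 and 3 reads in the Δ/D329A animals, and was listed at 0 RPM against 0.0974, 0.197 and 0.157 RPM. The fit of this gene (limma, adjusted p = 0.223) passed the threshold when Δ/D329A replicate 1 was left out (adjusted p = 0.0249). Neurog1, Neurog3 and Atoh1 were higher without overlap, 3 of 8 against 7.14% of bodies. Neurod6 was lower, at 0.292, 0.379 and 0.244 RPM in +/+ and 0.227, 0.115 and 0.157 RPM in Δ/D329A, in 1 of 8 members against 14.9% of bodies. In all, 4 of 8 had an unadjusted p under 0.05, against 16.1% of bodies, 0 were called by limma and 0 of the 4 members fitted by edgeR, which called 0.0422% of bodies. At the input promoters 0 members were called, and 1, Atoh1, had an unadjusted p under 0.05, against 4.96%.

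**Figure D4:**
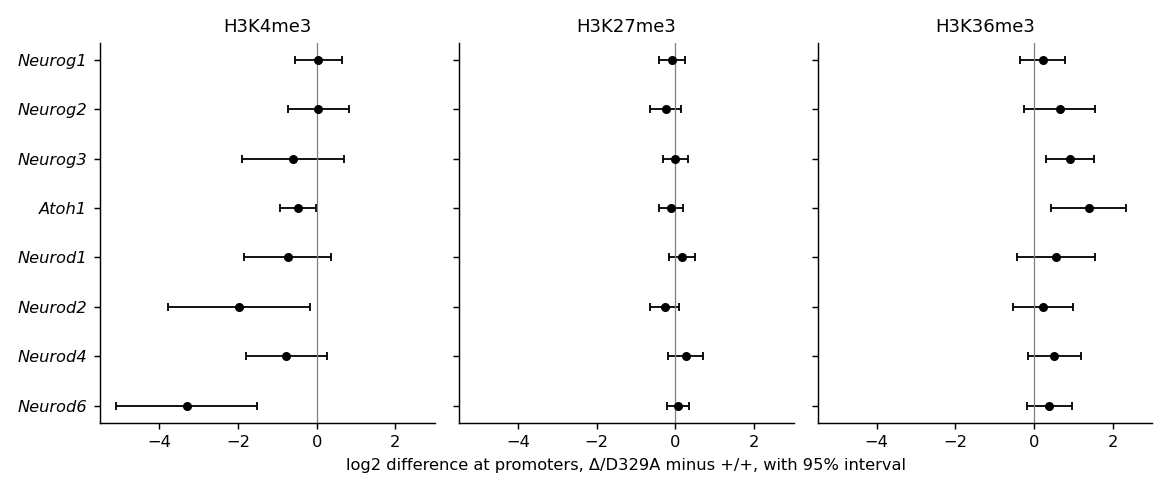
Log2 difference of each mark at member promoters (x axis, Δ/D329A minus +/+, from log2 of RPM plus 0.1; points) with its 95% interval from limma, 3 animals per genotype. Intervals of H3K27me3 all include 0, those of H3K4me3 at Neurod6, Neurod2 and Atoh1 lie below 0, and those of H3K36me3 at Atoh1 and Neurog3 lie above 0.

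The tissue was hypothalamus by its markers, which were read in all libraries. All 18 hypothalamic markers were fitted and 0 called by limma, with a summed level of 413 to 859 RPKM in +/+ and 473 to 693 RPKM in Δ/D329A. Markers of neighbouring tissue were present at lower and uneven levels. Thalamic markers summed to 46.7 to 74.8 RPKM in +/+ and 61.0 to 111 RPKM in Δ/D329A, where 8 of 9 had a positive difference. Of the 9, 6 had an unadjusted p under 0.05 by limma, against 7.62% of all genes fitted, and 0 were called. The largest log2 differences were 1.86 for Ramp3 (limma, adjusted p = 0.0497) and 1.79 for Gbx2 (adjusted p = 0.255). Anterior pituitary markers summed to 3.40 to 18.5 RPKM and 4.54 to 13.3 RPKM. Medial habenula markers summed to 19.3 to 43.1 RPKM and 17.0 to 24.996 RPKM, with 1 of 6 called, Pou4f1 (8 reads in +/+ and 191 in Δ/D329A; limma, adjusted p = 0.000607). The study describes Pou4f1 as derepressed and hypermethylated in Δ/D329A hypothalamus. Of the 6 markers fitted, 2 had a positive difference, Pou4f1 and Gpr151. Of the lists for neurons that carry NeuroD genes, dentate granule neurons (5 fitted of 7), cerebellar granule neurons (4 of 6) and cortical projection neurons (12 of 13) had 0 called. So had striatal neurons (8 of 8), neuroblasts (9 of 11) and astrocytes and tanycytes (7 of 7).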

How the data were processed

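RNA-seq values were deposited as log2 RPKM per gene: per the study's methods the authors trimmed single-end reads, mapped them to GRCm38 with HISAT2, merged reads over exons in SeqMonk and corrected for length. ChIP-seq signal was deposited as RPM (reads scaled to uniquely mapped reads) in 2000 bp tiles every 1000 bp, from native chromatin mapped by the authors with Bowtie, without input subtraction. The deposited values equal whole reads for 25962 of 25965 genes (within 0.02 reads) and for all ChIP values (within 0.01). Libraries were scaled to 10519197 to 18386070 RNA reads and held 12676361 to 30207875 uniquely mapped ChIP reads. Counting intervals and limits from 0 reads (3 reads) cover counting error only.

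Expression was fitted with limma 3.58.1 (variance trend, two-sided, Benjamini-Hochberg adjusted p under 0.01) over 17839 genes that reached 0.1 RPKM in 4 or more libraries. Marks were averaged over tiles in promoters (1500 bp before to 500 after the start) and gene bodies (500 bp after the start to the end), as log2 of RPM plus 0.1, and fitted alike over 25952 promoters and 23654 bodies (adjusted p under 0.05). The 13 mitochondrial genes were left out. Alternatives used edgeR 4.0.16 and DESeq2 1.42.0 on recovered reads (for ChIP, those of the tile nearest the region's centre). Single values were compared by exact permutation of the animals. Fits were tested on simulated data: of 200 changed features, 198 were recovered for expression (log2 change of 2), 168 for H3K4me3 and 171 for H3K27me3 at promoters (log2 change of 1). False calls were 3, 4 and 20. The simulated libraries had no spread particular to a gene, and only features above a minimum level were changed. The rates therefore do not measure the power of the real fits, which called 0 promoters for either of these marks.

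All 8 members were named, and from each list of related genes those called, or otherwise the 2 of largest absolute difference, except for items not reported here. For likeness, genes with at least 10 reads in every library were used. Members and lists were chosen with earlier results of these data known. The bisulfite libraries were not analysed here.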

Additional observations from a re-analysis of the deposited data

Results flagged for a closer look

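Among the 10 groups tested (5 members with reads in at least 6 libraries, in 2 genotypes), 1 held a library far from the others. Neurod4 in Δ/D329A replicate 4 had 4 reads (log2 RPKM, -3.22), where the other Δ/D329A libraries had 0 or 1. Its gap to the next library was 0.864 of the group's range, above Dixon's critical value at 95%. Chance alone sets apart about 1 in 20 groups.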

How the results depend on the processing

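No member was called for expression under the 18 alternatives that fitted any member (none reached the limit of 0.5 RPKM in enough libraries), and the 19 alternatives themselves called 11 to 249 genes against 19 (34 with median centring, 22 higher and 12 lower; 30 with quantile normalization, 16 higher and 14 lower; 77 by edgeR; 144 by edgeR without a limit on low counts; 249 by DESeq2). For H3K4me3, 2 members (Neurod6 and Neurod2) were called at promoters with regions under a mean of 0.2 RPM left out, and 2 with a robust estimate of spread added after the data were seen, among 268 and 216 promoters, and edgeR called 2 over gene bodies. For H3K36me3 bodies, leaving out each animal in turn gave 0 to 1 member called (Neurog3, without Δ/D329A replicate 1). The median H3K27me3 width fell to 16.7 kb at a log2 ratio of 1.5. All promoters called for H3K4me3 numbered 28 with median centring, 31 with quantile normalization and 80 by edgeR against 0, and for H3K27me3 54, 147 and 164 against 0, or 217 with regions under 0.2 RPM left out and 235 with the robust spread. For H3K36me3 promoters the alternatives called 0 to 19 against 6. Over gene bodies edgeR called 52 against 0 for H3K4me3 (44 and 53 with the limit of 0.2 RPM, without and with the robust spread), 62 against 2 for H3K27me3 and 9 against 0 for H3K36me3. The replicate numbers were not treated as pairs. Correlations of same-numbered deviations at promoters were of mixed sign for H3K4me3 (-0.26 to 0.23) and all positive but small for H3K27me3 (0.0125 to 0.0775). So few animals cannot exclude a pairing. With a replicate block 0 members were called (16 genes for expression, 0 promoters for H3K36me3 against 6). No direction reversed for expression, or for H3K4me3 at Neurod1, Neurod2, Neurod6 or Atoh1. The reversals below were of differences that were not called, and the cause was not tested. Over 2000 bp each side of the start the reversed values were H3K27me3 at promoters Neurod6 -0.053, Neurog3 -0.034, and H3K36me3 at promoters Neurod2 -0.041, and H3K4me3 at promoters Neurog2 -0.078. By edgeR the reversed values were H3K36me3 at gene bodies Neurod1 -0.035, Neurod4 -0.054, and H3K36me3 at promoters Neurod4 -0.18. With the mitochondrial set as a block the reversed values were H3K27me3 at gene bodies Neurog3 -0.029, and H3K27me3 at promoters Neurog3 -0.034, and H3K4me3 at promoters Neurog1 -0.035, Neurog2 -0.062. After quantile normalization the reversed values were H3K27me3 at gene bodies Neurod2 0.091, Neurog1 0.039, Atoh1 0.058, and H3K27me3 at promoters Neurod6 -0.026, Atoh1 0.040, and H3K36me3 at gene bodies Neurog2 -0.14. As a ratio to input the reversed values were H3K27me3 at gene bodies Neurod1 -0.23, Neurod6 0.082, Neurog1 0.082, Neurog3 -0.042, and H3K27me3 at promoters Neurod1 -0.13, Neurog3 -0.33, and H3K36me3 at gene bodies Neurod1 -0.099, Neurog2 -0.19, and H3K36me3 at promoters Neurog1 -0.13, and H3K4me3 at promoters Neurog1 -0.31, Neurog2 -0.17. With each animal left out in turn, differences that changed sign for H3K27me3 at gene bodies ran over Neurod1 -0.0092 to 0.11, Neurod2 -0.16 to 0.019, Neurod4 -0.0030 to 0.13, Neurod6 -0.13 to 0.028, Neurog3 -0.11 to 0.12. With each animal left out in turn, differences that changed sign for H3K27me3 at promoters ran over Neurog1 -0.20 to 0.0060, Neurog3 -0.11 to 0.087. With each animal left out in turn, differences that changed sign for H3K36me3 at gene bodies ran over Neurod1 -0.13 to 0.37, Neurod4 -0.067 to 0.19, Neurog2 -0.11 to 0.15. With each animal left out in turn, differences that changed sign for H3K36me3 at promoters ran over Neurod2 -0.019 to 0.44. With each animal left out in turn, differences that changed sign for H3K4me3 at gene bodies ran over Neurod4 -0.18 to 0.50, Neurog2 -0.63 to 0.12. With each animal left out in turn, differences that changed sign for H3K4me3 at promoters ran over Neurog1 -0.11 to 0.21, Neurog2 -0.22 to 0.33. Proneural transcripts of 0 to 27 reads a library limit the expression results to large changes.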
